A study of Homo sapiens with 4 samples.

Results

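The HOX genes form 4 clusters of homeobox genes in the human genome, and 38 of them were examined here as the members of these clusters, out of 62663 annotated genes (GENCODE release 44), of which 20033 were protein-coding. Members were taken from a list of gene symbols, by a rule that uses no measured value, although the list was drawn up with earlier results of these data known. H3.3 intervals were assigned to a member when they overlapped the gene or lay within 1 kb of one of its annotated transcription start sites (TSSs), and every interval between the outermost members of each cluster was collected as well. The data were peak lists from chromatin immunoprecipitation with sequencing (ChIP-seq) of the histone variant H3.3, made with an antibody in wild-type MRC5 cells, labelled as human lung fibroblasts and named in the methods as MRC5_VA, a fetal lung fibroblast line immortalised with SV40. One list came from cells that received no ultraviolet light and the other from cells harvested 3 h after 10 J/m2 UV-C. The methods state that DNA of 3 replicates was pooled, so each condition was 1 library, no replicate error could be given and no test was made. SV40 immortalisation was shared by both conditions, and a single line stands for the tissue. Intervals and shares below compare these 2 libraries, not the conditions, and the 95% intervals given are exact (Clopper-Pearson) and cover counting error only.

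HOX genes encode homeodomain transcription factors that set positional identity along the body axis, and their order along each chromosome follows the order in which they are used from head to tail, with low paralog numbers anterior and high numbers posterior. Adult and fetal fibroblasts keep a HOX pattern that reflects their site of origin, and the clusters are textbook targets of the repressive Polycomb and activating Trithorax complexes. H3.3 differs from the replication-coupled H3 proteins in being deposited independently of DNA replication, and is known to build up at active promoters, gene bodies and regulatory elements.

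The members lie in the HOXA cluster (10 members, chr7:27100354-27200091, minus strand), the HOXB cluster (10 members, chr17:48528526-48728750, minus strand), the HOXC cluster (9 members, chr12:53938831-54056030, plus strand) and the HOXD cluster (9 members, chr2:176092721-176190907, plus strand). All coordinates are hg38. The 101 bases around 9 summits are given because these intervals carry the differences between the lists or mark the strongest signal in a cluster. They are written 5′ to 3′ on the strand of the gene, with CpG dinucleotides in capitals. The first group was listed after UV only, at HOXA4 (chr7:27130531-27130631, minus strand, coding exon), HOXA13 (chr7:27200329-27200429, minus strand, upstream of the gene's exons) and HOXC5 (chr12:54033333-54033433, plus strand, coding exon).
HOXA4: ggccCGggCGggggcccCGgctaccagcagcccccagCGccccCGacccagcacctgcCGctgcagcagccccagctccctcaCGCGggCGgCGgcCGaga
HOXA13: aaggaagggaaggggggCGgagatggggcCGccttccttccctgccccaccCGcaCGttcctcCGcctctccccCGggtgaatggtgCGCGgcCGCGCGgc
HOXC5: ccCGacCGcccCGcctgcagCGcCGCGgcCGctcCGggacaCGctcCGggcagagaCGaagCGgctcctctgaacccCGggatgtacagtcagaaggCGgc
These windows held between 11 and 14 CpG. The interval of HOXA2 (chr7:27102054-27102154, minus strand) was listed only without UV, and its summit window held 5 CpG.
HOXA2: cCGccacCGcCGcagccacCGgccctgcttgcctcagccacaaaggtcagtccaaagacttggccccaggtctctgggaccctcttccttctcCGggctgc
The last group was listed in both lists, at a coding exon of HOXA3 (chr7:27110330-27110430, minus strand), at HOXA11 (chr7:27184575-27184675, minus strand), at HOXB2 (chr17:48543325-48543425, minus strand), in an intron of HOXC4 (chr12:54019287-54019387, plus strand) and at HOXD8 (chr2:176130601-176130701, plus strand).
HOXA3: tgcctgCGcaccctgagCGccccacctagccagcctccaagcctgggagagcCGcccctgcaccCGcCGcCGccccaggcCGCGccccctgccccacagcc
HOXA11: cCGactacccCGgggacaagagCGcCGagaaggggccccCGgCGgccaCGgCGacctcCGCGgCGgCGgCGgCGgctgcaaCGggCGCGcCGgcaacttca
HOXB2: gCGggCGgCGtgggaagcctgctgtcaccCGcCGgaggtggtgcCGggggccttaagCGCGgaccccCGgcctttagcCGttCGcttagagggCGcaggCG
HOXC4: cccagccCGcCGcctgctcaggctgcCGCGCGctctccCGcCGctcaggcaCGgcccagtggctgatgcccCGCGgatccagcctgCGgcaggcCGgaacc
HOXD8: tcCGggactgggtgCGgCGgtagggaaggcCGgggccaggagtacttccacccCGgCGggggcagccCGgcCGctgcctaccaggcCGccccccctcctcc
These windows held between 8 and 18 CpG, so a high CpG number was found both among intervals of both lists and among those listed after UV only.

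The lists held 102924 peaks without UV and 89709 after UV on chromosomes 1 to 22, X and Y, in 88822 and 77183 distinct intervals, because an interval with several summits is repeated once per summit. Reads per library are not known from these files. Peak strength is therefore given as a percentile, the rank of the −log10 q value among all peaks of the same list, since −log10 q and fold enrichment themselves depend on sequencing depth. The label of the cells was compared with marker genes. In each list 8 of 12 fibroblast genes had an interval at a TSS, among them COL1A1, COL1A2, VIM and TWIST1, while COL3A1, THY1, LUM and DCN had none. Of the lung mesenchyme genes, FOXF1 and TCF21 had one in each list and TBX4 and TBX5 had none, and 4 of 6 epithelial genes had one in each list (not EPCAM and NKX2-1). The 3 endothelial genes had none. An H3.3 interval is not a measure of transcription, so these markers describe the lists only.

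Before UV, 11 of 38 members had an H3.3 interval at a TSS (28.9%, 15.4% to 45.9%), and after UV 16 did (42.1%, 26.3% to 59.2%). Over all protein-coding genes the shares were 48.0% and 54.0%. Members had a median of 2 annotated TSSs and protein-coding genes a median of 5, which gives members fewer windows in which an interval can fall. With only the canonical TSS of each gene, 8 and 11 members had an interval, against 38.6% and 46.6% of protein-coding genes. Intervals over the gene or at its TSSs were found for 15 and 17 members, with backgrounds of 63.4% and 65.7%. The strongest TSS interval of the members ranked at a median percentile of 71.0 without UV and 75.5 after UV, and that of all protein-coding genes at 83.2 and 85.7. Ranked by fold enrichment instead, the members' medians were 29.8 and 55.4, so the rank depends on the measure of strength. The fold enrichment medians of all protein-coding genes are not given here. Whether they also differ from the medians by −log10 q was not tested.

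Of the 27 members without a TSS interval before UV, 6 had one after UV (22.2%, 8.62% to 42.3%), beside 17.7% of protein-coding genes, so the share lay near the background. Of the 11 members with one, 1 was without it after UV (9.09%, 0.230% to 41.3%), beside 6.68%. The members listed only after UV were HOXA4, HOXA5, HOXB3, HOXB4, HOXC5 and HOXC6, all with paralog numbers from 3 to 6, and HOXA2 was listed only without UV. By position, 4 of 11 anterior members (paralogs 1 to 4) had a TSS interval without UV and 6 after UV. Among the 11 central members (paralogs 5 to 8) the counts were 3 and 6. Among the 16 posterior members (paralogs 9 to 13) they were 4 and 4, with the same genes in both lists. These groups are small and the difference between them was not tested.

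**Figure D1:**
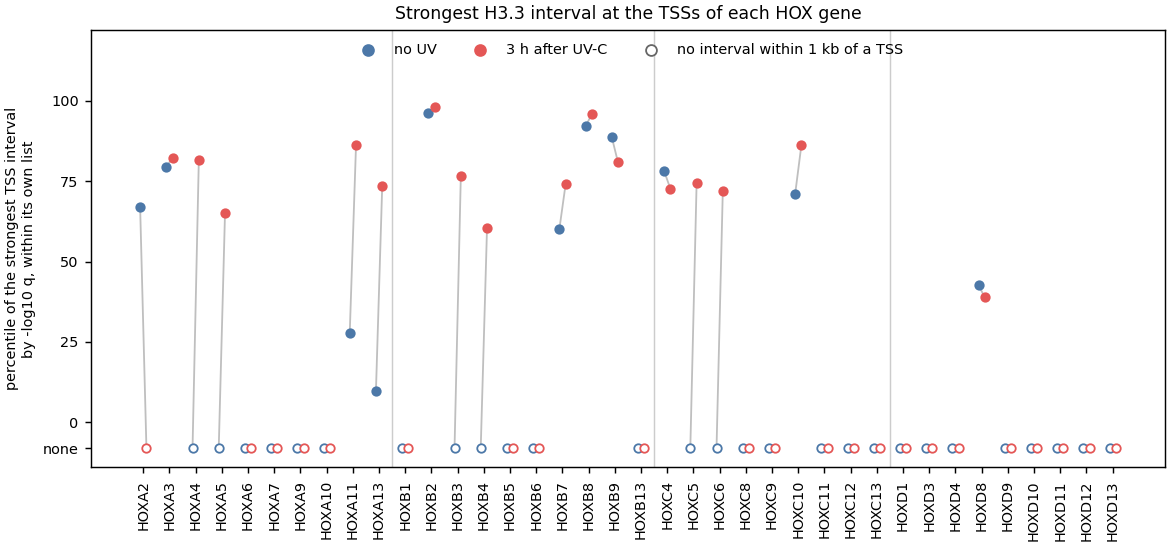
Percentile of the strongest H3.3 interval within 1 kb of a TSS (y axis, by −log10 q within its own list) for the 38 members in cluster order, without UV (blue) and 3 h after UV-C (red), with open points for no interval. The 6 members listed only after UV lie between the 60.4 and 81.7 percentiles, and 21 members have open points in both lists.

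HOXA4 (chr7:27128507-27130780) had no TSS interval without UV. After UV a 701 bp interval, chr7:27130089-27130789, lay over its coding exon with a summit 176 bp after a TSS, at −log10 q of 14.7, a 7.04-fold enrichment and the 81.7 percentile. Its neighbour HOXA5 had a 530 bp interval after UV, chr7:27142981-27143510, with a summit 385 bp after a TSS at the 65.2 percentile. Both intervals also lay inside long transcripts of HOXA3 and the antisense gene HOXA-AS3, so reads there cannot be assigned to one gene.

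HOXB3 and HOXB4 are adjacent anterior members of the HOXB cluster. HOXB3 had 2 TSS intervals after UV, the stronger at chr17:48554578-48554951 and the 76.5 percentile, and none without UV. Its canonical TSS lay 21692 bp from the nearest interval without UV and 11911 bp after UV, so HOXB3 was counted through TSSs of other transcripts. Over the whole gene and its TSSs HOXB3 had 1 interval without UV and 4 after UV. HOXB4 had a 326 bp interval after UV, chr17:48578005-48578330, 203 bp after a TSS and at the 60.4 percentile, the lowest rank among the members listed only after UV.

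HOXC5 had an interval after UV at chr12:54033217-54033532, 333 bp after its TSS, at −log10 q of 11.1 and the 74.4 percentile. HOXC6 was listed only after UV, through a TSS of a transcript other than the canonical one. The interval there, chr12:54016429-54016842 (72.1 percentile), also lay within 1 kb of a TSS of HOXC4. HOXC6 was not empty without UV: 7 intervals lay over the gene or its TSSs without UV and 12 after UV, and the nearest to its canonical TSS was 1200 bp away without UV and 1227 bp after UV, just outside the 1 kb window. HOXA2, the most anterior HOXA member, had a 290 bp interval without UV, chr7:27101946-27102235, at −log10 q of 7.05, a 4.59-fold enrichment and the 66.9 percentile. After UV the nearest interval was 3912 bp from its canonical TSS.

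A TSS interval was found in both lists for 10 members, HOXA3, HOXA11, HOXA13, HOXB2, HOXB7, HOXB8, HOXB9, HOXC4, HOXC10 and HOXD8. HOXB2, which acts in the hindbrain, had the highest rank of its cluster by −log10 q in each list, at the 96.2 percentile without UV (chr17:48543143-48544001, −log10 q 28.5) and the 98.0 percentile after UV (chr17:48543085-48544111, −log10 q 54.2). HOXB8 ranked at 92.1 and 95.9 and HOXB9 at 88.8 and 80.9. HOXB7 had −log10 q of 6.05 without UV, ranking below HOXB8 and HOXB9, and stood at the 74.1 percentile after UV, where the stronger interval was one found after UV only, chr17:48610569-48610876. By fold enrichment at the peak with the highest −log10 q, HOXB8 stood above HOXB2, at the 55.6 and 90.8 percentiles against 49.0 and 74.0. The other HOXB2 TSS interval had a 4.86-fold enrichment without UV and 8.05-fold after UV. The HOXB8 values were 4.51-fold and 8.29-fold, so without UV the order depends on the interval taken.

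In the HOXA cluster the highest TSS rank without UV belonged to HOXA3 (79.6, and 82.3 after UV) and after UV to HOXA11 (86.2). The ranks of HOXA3 come from different intervals, chr7:27120255-27120654 without UV and chr7:27113533-27114012 after UV, and the counterpart of the former ranked at 63.6 after UV. HOXA11, a limb and uterine regulator, had nearly the same interval in both lists, chr7:27184413-27184864 and chr7:27184428-27184885, but ranked at 27.7 without UV. HOXA13, the most posterior HOXA member, ranked at 9.64 without UV, by an interval at chr7:27199156-27199675. After UV it had a counterpart of that interval at the 46.5 percentile and another at chr7:27199928-27200584 at 73.5. In the HOXC cluster the highest rank without UV was HOXC4 (78.2, and 72.7 after UV) and after UV HOXC10 (86.3, and 71.0 without UV). HOXC4 met the rule only through TSSs of other transcripts, since its canonical TSS lay 23304 bp and 20303 bp from the nearest interval. The same held for HOXA3 (31830 bp and 9073 bp) and HOXB8 (1585 bp and 1643 bp). HOXD8 ranked at 42.7 and 38.9, and was the only HOXD member with an interval.

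The other 21 members had no TSS interval in either list. They were HOXA6, HOXA7, HOXA9 and HOXA10; HOXB1, HOXB5, HOXB6 and HOXB13; HOXC8, HOXC9, HOXC11, HOXC12 and HOXC13; and HOXD1, HOXD3, HOXD4, HOXD9, HOXD10, HOXD11, HOXD12 and HOXD13. Within 500 bp of the canonical TSS their median GC was 62.0%, and that of the 17 members with an interval in either list was 59.4%. Over all protein-coding genes the medians were 55.6% for those without and 64.5% for those with an interval. The HOXD members had the highest median GC of the 4 clusters (67.8%, with a CpG observed over expected ratio of 0.879) and the fewest intervals.

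Counted along the clusters rather than by gene, 28 distinct intervals lay between the outermost members without UV and 46 after UV, a ratio of 1.64. The number was 7 and 12 in HOXA, 12 and 16 in HOXB, 8 and 17 in HOXC, and 1 and 1 in HOXD. Covered bases made up 2.86% and 4.17% of the clusters, with values of 3.21% and 6.30% in HOXA, 3.74% and 3.91% in HOXB, 3.11% and 6.01% in HOXC, and 0.412% and 0.337% in HOXD. The 100 kb on each side of the clusters had 28 and 24 intervals (ratio 0.857), and the genome had a ratio of 0.869. Intervals within 1 kb of protein-coding TSSs had a ratio of 1.08. The clustered protocadherin genes, another family of tandem genes, had 3 and 4 intervals. Leaving out each cluster in turn gave ratios from 1.45 (without HOXC) to 1.88 (without HOXB).

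**Figure D2:**
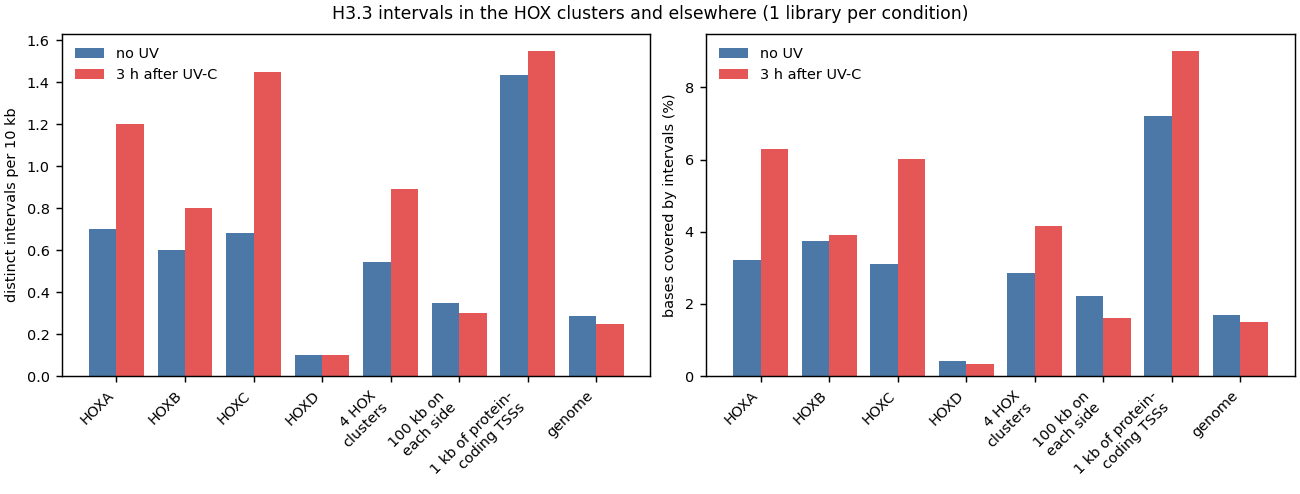
Distinct H3.3 intervals per 10 kb (left) and percent of bases covered (right) without UV (blue) and 3 h after UV-C (red) in each HOX cluster, the 4 clusters together, the 100 kb on each side, the windows within 1 kb of protein-coding TSSs and the genome. The 4 clusters have 0.543 and 0.893 intervals per 10 kb and the genome 0.288 and 0.250.

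The clusters had 50.9% GC and the genome 40.9%, and the cluster intervals had a median GC of 64.6% without UV and 64.4% after UV, against 49.2% and 50.8% for all intervals. The ratio of interval numbers (UV over no UV) was therefore also taken within classes of GC content. From 40% to 50% GC it was 1.5 in the clusters (2 and 3 intervals) and 0.723 over all intervals. From 50% to 60% it was 1.43 (7 and 10) and 0.927, from 60% to 70% it was 1.86 (14 and 26) and 1.53, and from 70% to 80% it was 1.4 (5 and 7) and 1.12. In each of these 4 classes the ratio in the clusters lay above that of all intervals, with few cluster intervals in 3 of them, and over all intervals the ratio lay above 1 only in the GC-rich classes. With 1 library per condition, UV and other differences between the libraries cannot be told apart, and the difference between these ratios was not tested.

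**Figure D3:**
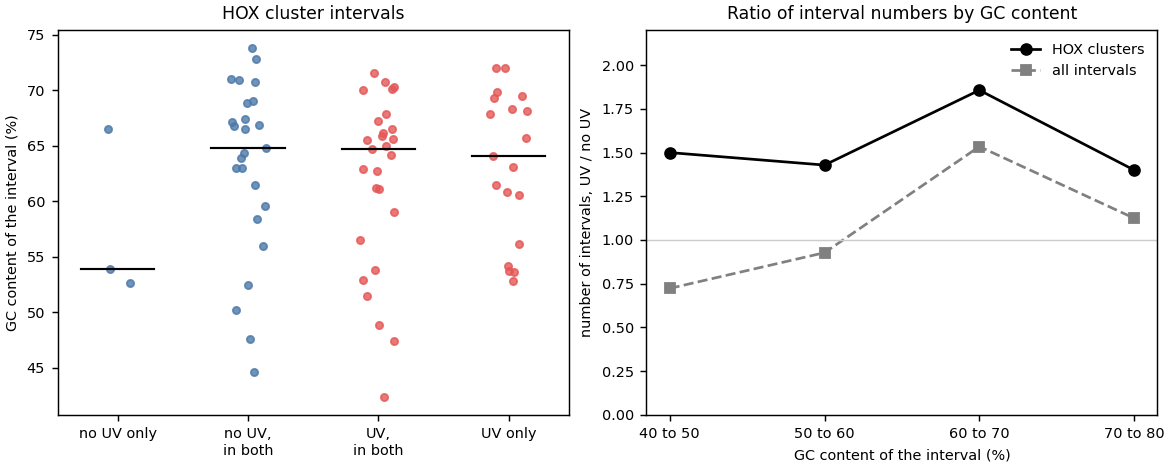
Left, GC content of each HOX cluster interval (points, with the median as a line) by list and by whether the other list holds an overlapping interval. Right, number of intervals after UV over the number without UV in classes of GC content, for the clusters (black) and all intervals (grey), where both lines are highest from 60% to 70% GC, at 1.86 and 1.53.

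An interval was said to have a counterpart when it overlapped an interval of the other list by at least 1 bp. Without UV 25 of 28 cluster intervals had one (89.3%, 71.8% to 97.7%), and after UV 27 of 46 did (58.7%, 43.2% to 73.0%). Over all intervals the shares were 57.3% and 65.6%, but in the class of 60% to 80% GC they were 91.2% and 63.3%, close to the shares in the clusters. Intervals without a counterpart numbered 3 without UV and 19 after UV. After UV there were 6 of them in HOXA, 5 in HOXB, 8 in HOXC and 0 in HOXD.

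In HOXA the widest intervals without UV were the HOXA3 coding exon interval (667 bp) and one in a HOXA3 intron, chr7:27115562-27116107 (546 bp). After UV the widest was a 1030 bp interval in a HOXA3 intron, chr7:27123400-27124429, which had no counterpart. It was followed by the HOXA3 coding exon interval, then 812 bp wide. That exon interval was the strongest of the clusters without UV, at the 99.5 percentile (−log10 q 61.4), and ranked at 97.3 after UV. HOXA3 as a whole had 4 intervals without UV and 9 after UV, and the strongest HOXA intervals found only after UV were those of HOXA4 and HOXA13. From HOXA6 to HOXA10 no interval was found in either list.

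HOXB held the widest interval of all clusters, 2200 bp with 3 summits between HOXB1 and HOXB2 (chr17:48535435-48537634), at the 93.5 percentile without UV. After UV this stretch held 2 intervals of 503 bp and 548 bp at the 54.8 and 77.2 percentiles. The next in width without UV was a 916 bp interval, chr17:48538190-48539105, also between these genes, whose counterpart after UV was 831 bp wide. After UV the widest was the HOXB2 TSS interval, at 1027 bp. The intervals found only without UV lay between HOXB1 and HOXB2 (chr17:48534653-48535051, 40.8 percentile) and between HOXB9 and HOXB13 (chr17:48685569-48685849, 25.2 percentile). The latter was on the 3′ side of HOXB13. The strongest found only after UV were at HOXB3 and HOXB7. HOXB5 and HOXB6 had no TSS interval although they lie between HOXB4 and HOXB7.

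In HOXC the widest interval without UV was 880 bp, chr12:54012753-54013632, at the end of HOXC8, where 2 shorter intervals stood after UV. It was followed by the HOXC10 TSS interval (605 bp). After UV the widest were an interval in an intron of HOXC9, chr12:53997305-53998016 (712 bp), and the HOXC4 TSS interval (585 bp). The strongest HOXC intervals were shared by both lists. The HOXC4 intron interval ranked at 98.1 and 93.3, the HOXC9 intron interval at 96.9 and 98.2, and an interval in a HOXC6 intron, chr12:54014477-54014851 without UV, at 96.7 and 97.8. The strongest found only after UV were chr12:53952907-53953340, before HOXC12 and 1563 bp from its canonical TSS, at the 88.2 percentile, and chr12:54031640-54032002 in an intron of HOXC4, at −log10 q of 11.3. HOXC had no interval found only without UV.

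**Figure D4:**
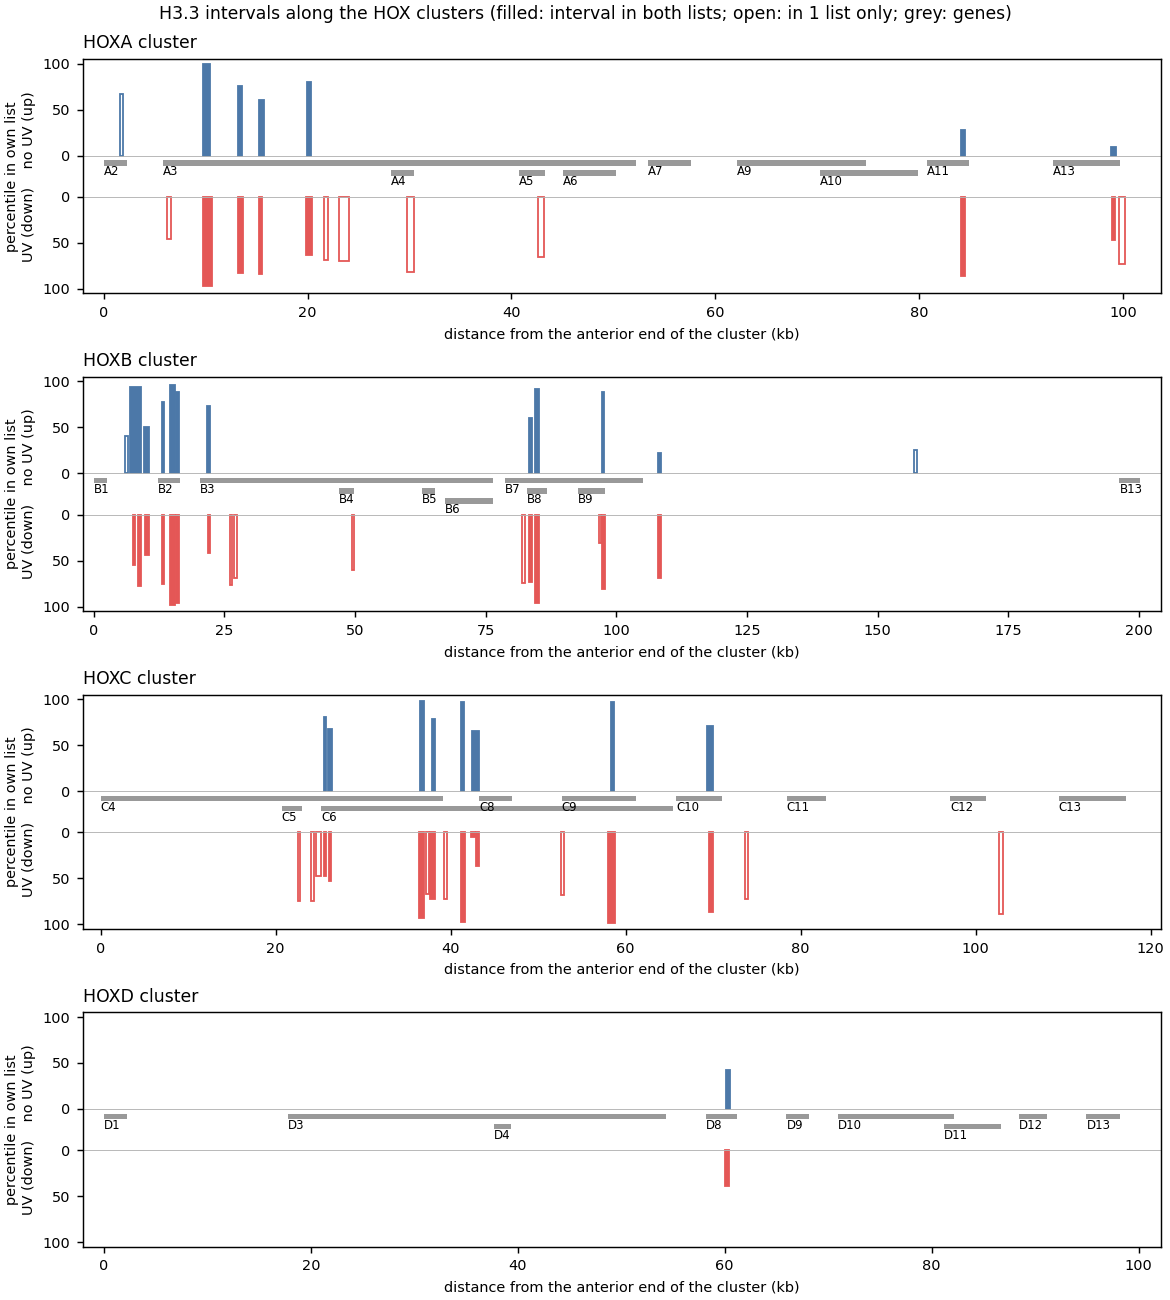
H3.3 intervals along the 4 clusters from the anterior end (x axis, kb), with bar height as percentile in the own list, upward without UV (blue) and downward after UV (red), filled when the other list holds an overlapping interval, and genes in grey. Intervals group around HOXA3, HOXB2 and HOXC4 to HOXC6, and HOXD has 1 interval in each list, at HOXD8.

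By place, 13 of 28 intervals without UV and 22 of 46 after UV lay at a member TSS. A further 3 and 3 lay over coding exons, 2 and 5 over other exons, 5 and 10 in introns, and 5 and 6 between members. By nearest member, 14 and 22 belonged to anterior, 8 and 14 to central and 6 and 10 to posterior genes. The count was higher after UV in each of these classes but coding exons, as was the total (28 and 46). Over all intervals, 18126 of 88822 without UV and 19600 of 77183 after UV lay within 1 kb of a protein-coding TSS.

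Overlapping intervals made 27 pairs. They came from 25 intervals without UV, because the 2200 bp HOXB interval and the 880 bp HOXC interval each overlapped 2 intervals after UV. In each pair of these 2 intervals the rank was lower and the width smaller after UV. Over the 27 pairs the rank was higher after UV in 12 and lower in 15. The median difference was −2.20 percentile points (UV minus no UV), beside −2.72 over all 53655 pairs of the lists. Of all pairs of the lists, 42.3% ranked higher after UV. The interval was wider after UV in 15 and narrower in 12, and the summits lay a median of 17 bp apart. The median difference of the cluster pairs thus lay close to that of all pairs.

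**Figure D5:**
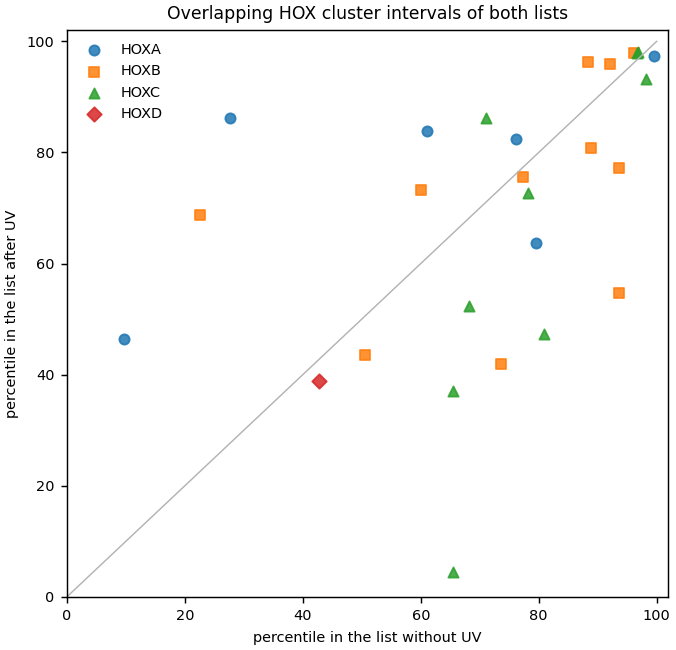
Percentile after UV (y axis) against percentile without UV (x axis) of the 27 pairs of overlapping HOX cluster intervals, by cluster, with the line of equal rank. In 12 pairs the point lies above the line and in 15 below it.

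The clusters also hold 55 other annotated genes, among them 27 long non-coding RNA (lncRNA) genes, and 12 of the 55 had a TSS interval without UV and 14 after UV. Over all annotated genes the shares were 24.9% and 27.2%. HOTTIP, an lncRNA from the posterior end of HOXA, shared the intervals of HOXA13 and ranked at 9.64 and 73.5. HOXA11-AS shared those of HOXA11 (27.7 and 86.2), and HOXB-AS1 those of HOXB2 (96.2 and 98.0). HOXB-AS3 ranked at 73.6 and 41.8 and HOXC-AS2 at 96.9 and 98.2, while HOTAIR had none in either list. HOXA-AS3 and MIR615 had a TSS interval after UV only. For MIR615 this was the HOXC5 interval, since the microRNA gene lies within HOXC5, and the overlapping antisense and host genes cannot be told apart by H3.3 position. Its mature products (RefSeq, GRCh38.p14) are shown with the seed, bases 2 to 8, in capitals, because their seeds differ.
miR-615-5p: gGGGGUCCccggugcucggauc
miR-615-3p: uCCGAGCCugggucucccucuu
No level of either microRNA was measured.

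Within 301 bases around the summit, the GC box GGGCGG (either strand) was found in 16 of 28 cluster intervals without UV (57.1%) and 28 of 46 after UV (60.9%), against 21.1% and 27.8% of all intervals of the lists. The AP-1 motif TGANTCA was found in 1 and 2 (3.57% and 4.35%, against 7.46% and 6.88%), at the block between HOXB1 and HOXB2 in both lists and at the 1030 bp HOXA3 intron interval after UV. The joint PBX and HOX motif TGATTNAT was found in 1 and 2, all in HOXA3 (3.57% and 4.35%, against 2.04% and 1.55%), and the cyclic AMP response element TGACGTCA in 0 of 28 and 0 of 46 (0.261% and 0.284% of all intervals). The shares were not matched for GC content. Median GC was 64.6% and 64.4% in the cluster intervals, against 49.2% and 50.8% in all intervals. Whether motif shares differ at equal GC was not tested. The motifs were counted in the genome sequence and say nothing of binding.

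HOX proteins act with TALE homeodomain cofactors, of which 8 of 11 had a TSS interval without UV and 10 after UV. PKNOX1 and PKNOX2 were listed only after UV, at the 77.3 and 88.4 percentiles, PBX4 had none, and MEIS2 ranked at 99.3 and 99.4. Of the Polycomb group genes, whose products keep HOX genes silent, 12 of 13 had one without UV and all 13 after UV, with CBX2 listed only after UV at 36.2. EED, a core subunit, ranked at 23.9 and 90.4. Of the Trithorax group genes 5 of 8 and 7 of 8 had one, with WDR5 and MEN1 only after UV (60.3 and 55.6) and RBBP5 in neither. Among retinoic acid receptors and CYP26 enzymes, which read and clear the morphogen that activates HOX genes, the counts were 4 and 6 of 8, with CYP26B1 and RXRB only after UV. The ParaHox and EVX genes, homeobox relatives of HOX, had one in 1 and 2 of 8, GSX2 in both lists and CDX1 only after UV. Over all protein-coding genes the shares were 48.0% and 54.0%, but the number of TSSs differed. The median was 13 for TALE, 4 for Polycomb, 12.5 for Trithorax, 5.5 for retinoic acid and 1 for ParaHox and EVX genes, against 5. None of the listed regulators had a TSS interval only without UV. Of protein-coding genes with one before UV, 6.68% had none after UV, and of those without, 17.7% had one after UV.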

How the data were processed

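H3.3 ChIP-seq was analysed from 2 of 4 samples, the immunoprecipitates without UV and 3 h after UV; the 2 input samples carry no list used here. Per the labels, the processing notes of the submitters name bcl2fastq 2.17, Trimmomatic 3.36, BWA 0.7.12 and MACS 1.4.2 with build hg38, and the methods name duplicate removal with Biobambam2. MACS 1.4.2 does not usually write lists of this format with q values, so the version behind the q values, on which all ranks rest, is uncertain. The peak calling threshold and control were not given in the sources used here. The authors deposited peak lists with interval positions, a score (10 times −log10 q without decimals), fold enrichment as a ratio, and −log10 of the p and q values, 1 line per summit. From these deposited values, distinct intervals were compared with GENCODE release 44 and hg38 using Python 3.11.15, pandas 2.3.3, scipy 1.17.1 and pysam 0.24.0. An interval belonged to a TSS within 1 kb, and the strongest peak by −log10 q was ranked within its list. Depth per library is not known, so peak strength was compared between lists only as a rank, while numbers, widths and overlaps of intervals were compared directly and can also depend on depth. The counting was tested on simulated lists, for genes whose TSSs lay apart from those of other genes. Genes that overlap or share intervals, as in the HOX clusters, were not covered by it. All members were reported, with full values for those found in 1 list only, the highest rank per cluster, and the widest and strongest unshared intervals. The members and lists were chosen with earlier results of these data known. Alternatives were other windows, thresholds, an equal number of peaks, overlap and boundaries.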

Additional observations from a re-analysis of the deposited data

How the results depend on the processing

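No paired analysis was possible because each condition is 1 pooled library, and for the same reason no replicate could be left out. The number of members with a TSS interval ran from 8 to 15 without UV and from 11 to 19 after UV over the alternatives, those found only after UV from 4 to 8, and those found only without UV from 1 to 2, the 2 (HOXA2 and HOXC8) being counted over the gene or TSS. Over all protein-coding genes the shares with a TSS interval ran from 38.6% to 63.4% without UV and from 46.6% to 65.7% after UV. Those found only after UV ran from 6.03% to 10.8%, and those found only without UV from 2.37% to 3.67%. The ratio of cluster intervals was 1.67 at −log10 q of at least 3, 1.86 at 5 and 1.70 with equal numbers of peaks. Over all intervals the ratio was 0.928, 1.01 and 1.00 in the same settings, against 0.869 in the main one. Leaving out a cluster, chosen after seeing the data, lowers counts by construction: without HOXB 16 and 30 intervals, and without HOXC 29 after UV. Ranked by fold enrichment instead of −log10 q, the median percentile of the members' strongest TSS interval was 29.8 without UV and 55.4 after UV. No such median of all protein-coding genes stands beside these values, and the cause was not tested. Of 86 alternative values, 5 moved past the limits set, which were 1.5 times for counts and ratios and the 95% interval for shares and medians. Of the 5, 3 were counts with a cluster left out. The median of 29.8 without UV was not among them, since it lay inside a wide 95% interval resting on 11 members. The number that moved is therefore no measure of how stable the medians are. With 1 library per condition no difference here has a replicate check.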
